A study of Homo sapiens with 12 samples.

Results

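ARC, RASD1, the early growth response genes EGR1, EGR2 and EGR3, the orphan nuclear receptor genes NR4A1, NR4A2 and NR4A3, and the immediate early response genes IER2 and IER3 make up 10 of the 60641 gene symbols counted in these cells. They were found by symbol, and all 10 were among the 17889 genes with enough reads to be tested; each passed the filter on low counts in all 12 libraries. ARC and RASD1 were chosen by their measured levels, that is, for their large rises in cells given 1,2-DHN, whereas the others are named by gene family. The set and the lists around it were put together with earlier results of these data known, so the counts and p-values below are not independent evidence. The changes of ARC and RASD1 in that comparison, and in the comparisons that reuse its libraries, are therefore given as values with no test.

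The cells are SRA01/04, an immortalised human lens epithelial line, measured after 24 hours of treatment. The 4 groups were cells given 1,2-DHN and asparagine (DHN-A), cells given 1,2-DHN (DHN), cells given asparagine (NC-A) and normal cells given neither (NC), with 3 libraries each. 1,2-DHN is 1,2-dihydroxynaphthalene, the naphthalene metabolite that oxidises to a reactive quinone, and asparagine is the amino acid whose effect on that injury was asked about. The labels give neither doses nor the order of addition. They do not say that the libraries of a group are separate cultures, so a p-value here speaks only for the spread among libraries, which may be technical.

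Immediate early genes are transcribed within minutes of a growth factor, calcium or stress signal, without new protein synthesis, and their transcripts usually decay quickly. Kinase cascades such as ERK act on SRF with its ELK partners at CArG boxes, and on CREB at cAMP response elements (CREs). The EGR proteins are zinc finger transcription factors, and the NR4A proteins are nuclear receptors that act without a known hormone and are set by how much of them is made. ARC is best known from neurons, where it governs the removal of glutamate receptors at synapses, and RASD1 is a RAS-like GTPase first found as a dexamethasone-induced gene.

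Promoter windows of some members show which of these elements lie next to the start sites that they cover. RefSeq (GRCh38.p14) windows of 300 bases, 250 before and 50 after a start site, were held for 6 of the 10 members, in 9 windows: RASD1, EGR1, EGR2, NR4A1, NR4A3 and IER2. Those of RASD1, EGR1, EGR2 and NR4A3 are shown because they hold CArG boxes or CRE cores and belong to genes that were higher in DHN than in NC. They are chr17:17496346-17496645 on the minus strand for RASD1, chr5:138465229-138465528 on the plus strand for EGR1, chr10:62816317-62816616 on the minus strand for EGR2, and chr9:99821635-99821934 on the plus strand for NR4A3. All are written 5′ to 3′ along the gene, with CArG boxes and the CRE core TGACG, on either strand, in capitals.
RASD1: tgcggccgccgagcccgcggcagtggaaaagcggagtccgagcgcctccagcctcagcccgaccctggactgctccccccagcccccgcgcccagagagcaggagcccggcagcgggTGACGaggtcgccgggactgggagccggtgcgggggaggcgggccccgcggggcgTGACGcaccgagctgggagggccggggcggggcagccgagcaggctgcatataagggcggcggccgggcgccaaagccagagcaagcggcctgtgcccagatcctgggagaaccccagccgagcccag
EGR1: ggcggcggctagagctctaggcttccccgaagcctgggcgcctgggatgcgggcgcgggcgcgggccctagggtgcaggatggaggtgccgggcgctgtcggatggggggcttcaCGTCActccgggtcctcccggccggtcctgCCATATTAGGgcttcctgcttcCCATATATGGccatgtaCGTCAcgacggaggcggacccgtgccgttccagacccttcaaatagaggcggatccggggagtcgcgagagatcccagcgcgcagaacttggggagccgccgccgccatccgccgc
EGR2: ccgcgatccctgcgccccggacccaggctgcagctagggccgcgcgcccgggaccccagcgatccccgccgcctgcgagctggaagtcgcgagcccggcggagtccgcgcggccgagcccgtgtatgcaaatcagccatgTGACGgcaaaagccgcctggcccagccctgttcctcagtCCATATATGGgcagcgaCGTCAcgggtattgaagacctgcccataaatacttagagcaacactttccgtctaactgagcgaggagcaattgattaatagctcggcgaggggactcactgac
NR4A3: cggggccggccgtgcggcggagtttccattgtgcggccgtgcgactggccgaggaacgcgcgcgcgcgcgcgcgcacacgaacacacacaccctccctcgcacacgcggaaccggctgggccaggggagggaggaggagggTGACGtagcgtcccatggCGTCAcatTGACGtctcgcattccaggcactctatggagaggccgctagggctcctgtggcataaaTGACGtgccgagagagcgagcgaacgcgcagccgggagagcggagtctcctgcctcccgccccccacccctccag

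EGR1 had 2 CArG boxes, from base -105 to -96 and from -83 to -74, with base 1 at the start site, between 2 CRE cores. EGR2 had 1 CArG box from -71 to -62, also between 2 CRE cores. NR4A3 had 4 CRE cores and no CArG box, RASD1 had 2 CRE cores and no CArG box, and IER2 had 1 CRE core. Of 35116 RefSeq windows of this length, 1.29% held a CArG box and 24.6% held TGACG, so a CRE core alone is common. The EGR site GCGNGGGCG, in 9.43% of all windows, matched once in the EGR1 window and once in another EGR2 window. The full CRE TGACGTCA (1.85% of all windows), the AP-1 site TGANTCA (7.71%), the NR4A site AAAGGTCA (1.22%), the heat shock pair GAANNTTC (6.77%) and the ETS site CCGGAAGT (4.14%) had 0 matches in the 9 windows, and neither NR4A1 window matched any motif searched. The NR4A1 windows are chr12:52022582-52022881 and chr12:52037465-52037764, and the gene runs on to 52059507. Start sites outside the windows held, of NR4A1 or of other members, were not searched. The lack of a match therefore holds for these windows only. TGACG lies within TGACGTCA, and both strands were read for every motif.

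**Figure D1:**
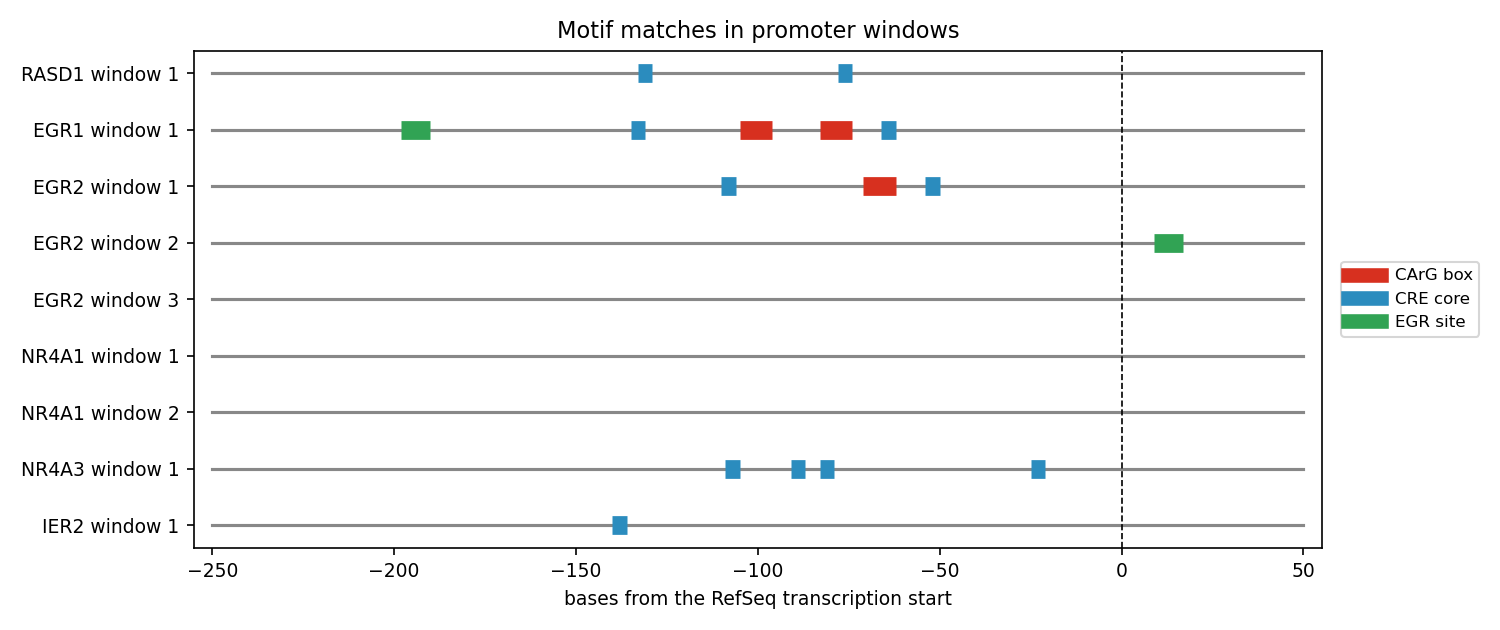
Motif matches along the 9 promoter windows, by distance in bases from the RefSeq start site (dashed line); windows of a gene with several starts are numbered. The 2 CArG boxes of EGR1 and the 1 of EGR2 each lie between CRE cores, while NR4A3 has 4 CRE cores and the 2 NR4A1 windows have no match. Start sites outside these windows were not searched.

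Total counts ran from 12381071 to 27526206 per library. Levels are in CPM, read counts divided by library size after scaling for library composition; TPM, which also divides by gene length, is used where genes are compared with each other. Lens markers were sparse: 6 of 14 had enough reads for a test, PAX6, a lens and eye transcription factor, averaged 25.9 CPM, and CRYAA, the lens alpha A-crystallin, had 5 reads in all 12 libraries. By comparison 7 of 10 fibroblast markers and 10 of 12 neuron markers were tested, and COL1A1, a collagen I chain, averaged 1000 CPM. In bulk RNA, fewer cells of a type and less RNA per cell cannot be told apart.

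1,2-DHN without asparagine was accompanied by higher levels of every member but IER2. ARC, on chromosome 8 from 142611044 to 142614472 (GRCh38, GENCODE 29), was at 53.8, 57.7 and 63.0 CPM in DHN, against 0.746, 0.772 and 1.06 CPM in NC. The groups lie far apart, with a log2 change of 6.05 ± 0.14 (± SE), or 66.2-fold, and NC counts of only 12 to 25 reads per library. RASD1, on chromosome 17 from 17494437 to 17496395, was at 21.7, 25.7 and 26.1 CPM in DHN, against 1.43, 1.40 and 1.18 CPM in NC, a log2 change of 4.21 ± 0.16. These are the rises for which both genes were picked.

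Of the other 8 members, 7 were called higher in DHN than in NC (edgeR's quasi-likelihood test, Benjamini-Hochberg adjusted over all tested genes, threshold 0.05) and none lower. The background is high: 38.7% of all tested genes were called in this comparison, and 19.7% as higher. The median log2 change of the 8 was 1.41, against 0.0073 over all tested genes.

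EGR1, a zinc finger factor on chromosome 5 from 138465490 to 138469315, was at 122.2, 118.6 and 123.7 CPM in DHN, against 21.6, 23.3 and 24.7 CPM in NC. It rose by 2.38 ± 0.059 on the log2 scale (edgeR adjusted p = 1.49e-33), 5.21-fold, with the groups well apart. EGR2, known for its role in myelinating Schwann cells and on chromosome 10 from 62811996 to 62919900, was at 13.9, 15.3 and 15.8 CPM in DHN, against 6.15, 4.92 and 5.75 CPM in NC. Its change was 1.43 ± 0.12 (edgeR adjusted p = 2.24e-13), without overlap. EGR3, on chromosome 8 from 22687659 to 22693302, was at 7.49, 8.53 and 8.55 CPM in DHN, against 2.55, 3.19 and 3.55 CPM in NC. It rose by 1.39 ± 0.17 (edgeR adjusted p = 4.45e-09), close to EGR2 and below EGR1 on this scale.

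The NR4A receptors rose as well. NR4A1 (NUR77), on chromosome 12 from 52022832 to 52059507, was at 9.51, 11.2 and 13.5 CPM in DHN, against 5.84, 4.54 and 5.03 CPM in NC, a log2 change of 1.17 ± 0.15 (edgeR adjusted p = 1.14e-08). It had the widest spread among the DHN libraries of the 3 receptors, though no DHN library overlapped NC. NR4A2 (NURR1), a factor that midbrain dopamine neurons need, on chromosome 2 from 156324432 to 156342348, was at 9.03, 8.58 and 10.3 CPM in DHN, against 2.175, 2.27 and 2.45 CPM in NC. NR4A3 (NOR1), on chromosome 9 from 99821855 to 99866891, was at 13.1, 12.6 and 10.97 CPM in DHN, against 3.11, 2.75 and 2.999 CPM in NC. NR4A2 and NR4A3 changed by nearly the same amount, 2.01 ± 0.18 and 2.04 ± 0.16 on the log2 scale (edgeR adjusted p = 1.05e-12 and 1.63e-14).

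The IER genes changed less than the rest. IER3, an immediate early gene linked to cell survival, on chromosome 6 from 30743199 to 30744554, was at 236, 240.2 and 247 CPM in DHN, against 167, 192 and 207 CPM in NC. The change was small, at 0.35 ± 0.089 (edgeR adjusted p = 0.0113), and the groups did not overlap. IER2, a nuclear immediate early gene on chromosome 19 from 13150415 to 13154908, was at 30.2, 32.1 and 34.7 CPM in DHN, against 30.1, 31.6 and 30.5 CPM in NC. It was not called, at 0.079 ± 0.073 (edgeR adjusted p = 0.437), and its groups overlapped.

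**Figure D2:**
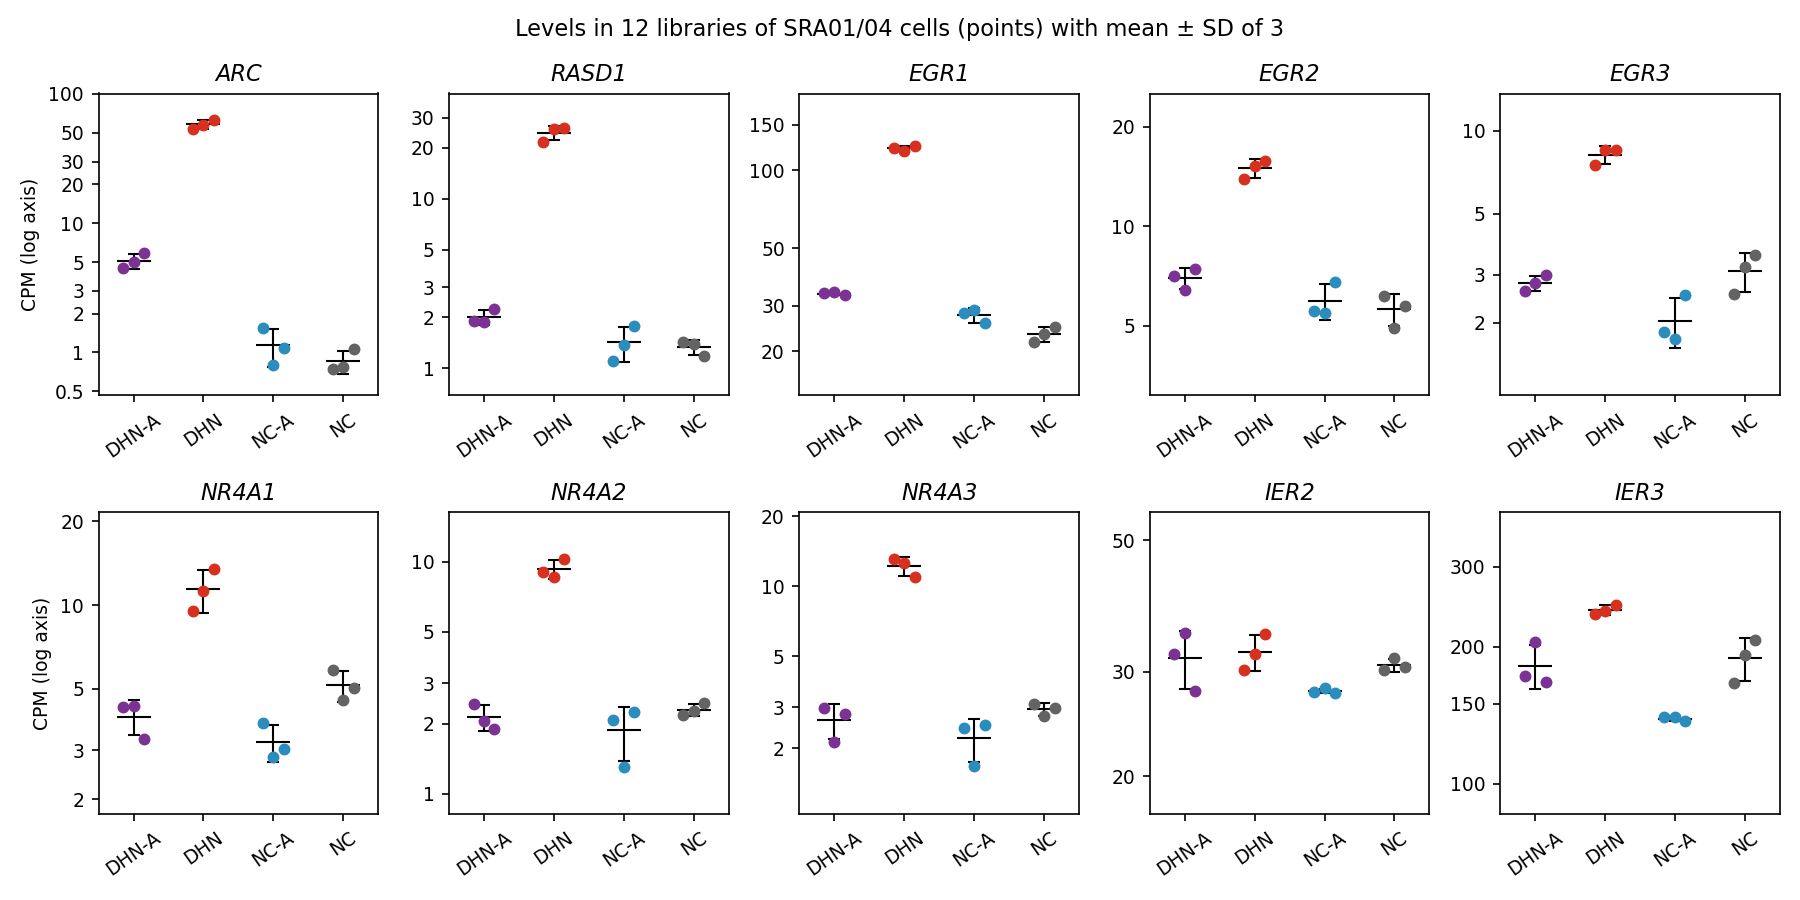
Levels of the 10 members in CPM on a log axis, 1 point per library, with mean and SD of the 3 libraries in black; groups run DHN-A, DHN, NC-A, NC. For every member but IER2 the DHN libraries lie above all others, by a small margin for IER3. ARC alone also keeps DHN-A (4.53 to 5.83 CPM) far above NC-A (0.799 to 1.55 CPM), and IER2 is nearly level.

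The next comparison, DHN-A against NC-A, gives the effect of 1,2-DHN in cells that all had asparagine, and shares no library with DHN against NC. Here all 10 members could be tested. ARC and EGR1 were called higher, 2 of 10, where 2.1% of all tested genes were called and 0.805% as higher. The median log2 change of the 10 was 0.30, against 0.003 over all tested genes.

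ARC was at 4.53, 4.97 and 5.83 CPM in DHN-A, against 1.55, 0.799 and 1.09 CPM in NC-A. It rose by 2.15 ± 0.19 on the log2 scale (edgeR adjusted p = 1.33e-11), 4.44-fold, and each DHN-A library lay above each NC-A library. EGR1 was at 33.6, 33.7 and 32.9 CPM in DHN-A, against 28.1, 28.9 and 25.6 CPM in NC-A, a rise of 0.28 ± 0.064 (edgeR adjusted p = 0.00664). The groups did not overlap, but the call was lost without NC-A 3 (0.23, adjusted p = 0.126). RASD1 was at 1.91, 1.87 and 2.23 CPM in DHN-A, against 1.11, 1.38 and 1.78 CPM in NC-A. Its groups did not overlap either, yet its 0.46 ± 0.21 was not called (edgeR adjusted p = 0.328).

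The remaining EGR and NR4A genes were not called. EGR3 was between 2.62 and 2.98 CPM in DHN-A and between 1.74 and 2.53 CPM in NC-A, without overlap, and EGR2 was between 6.42 and 7.40 CPM in DHN-A and between 5.45 and 6.78 CPM in NC-A, with overlap. The NR4A genes overlapped as well. EGR3 was at 0.43 ± 0.20 (edgeR adjusted p = 0.352), EGR2 at 0.22 ± 0.13 (0.517), NR4A1 at 0.31 ± 0.18 (0.490), NR4A2 at 0.18 ± 0.22 (0.827) and NR4A3 at 0.25 ± 0.20 (0.682). IER2 was at 0.19 ± 0.074 (0.229). IER3 was at 172.7, 204.5 and 167.2 CPM in DHN-A, against 140.1, 139.8 and 137.3 CPM in NC-A. Its 0.38 ± 0.092 missed the threshold (edgeR adjusted p = 0.0862) and passed it in 8 of 18 other settings, with adjusted p down to 6.94e-15 with no filter on low counts.

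Set side by side as differences in CPM, the gap between DHN-A and NC-A was a small part of that between DHN and NC for most members. It was 6.91% ± 0.83 of it for ARC (± SE from the spread of the libraries, as for these shares), 2.51% ± 0.99 for RASD1 and 5.97% ± 1.05 for EGR1. The share was 11.02% ± 5.6 for EGR2, 14.9% ± 5.4 for EGR3, 11.98% ± 7.3 for NR4A1, 3.78% ± 4.71 for NR4A2 and 4.66% ± 4.05 for NR4A3. For IER3 it was 80.8% ± 29.3. For ARC and RASD1 the share rests on the rise for which they were picked and is a description. No share was computed for IER2, which was not called in DHN against NC and averaged 31.6 CPM in DHN-A, 32.35 CPM in DHN, 27.8 CPM in NC-A and 30.8 CPM in NC.

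The interaction, which is the change in DHN-A against NC-A minus that in DHN against NC, tests the difference itself. Of the 8 members open to a test, 6 were called lower, where 25.7% of all tested genes were called, 13.2% as higher and 12.5% as lower. EGR1 was at -2.10 ± 0.087 (edgeR adjusted p = 8.08e-24), NR4A2 at -1.83 ± 0.29 (2.7e-06), NR4A3 at -1.80 ± 0.26 (5.22e-07) and EGR2 at -1.21 ± 0.18 (1.11e-06). EGR3 was at -0.96 ± 0.27 (edgeR adjusted p = 0.00597, but 0.0712 without NC-A 3) and NR4A1 at -0.86 ± 0.24 (0.00456). IER3 was at 0.033 ± 0.13 (edgeR adjusted p = 0.904) and IER2 at 0.11 ± 0.10 (0.523), neither called. ARC and RASD1, for which the value is a description, were at -3.90 ± 0.32 and -3.74 ± 0.29.

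**Figure D3:**
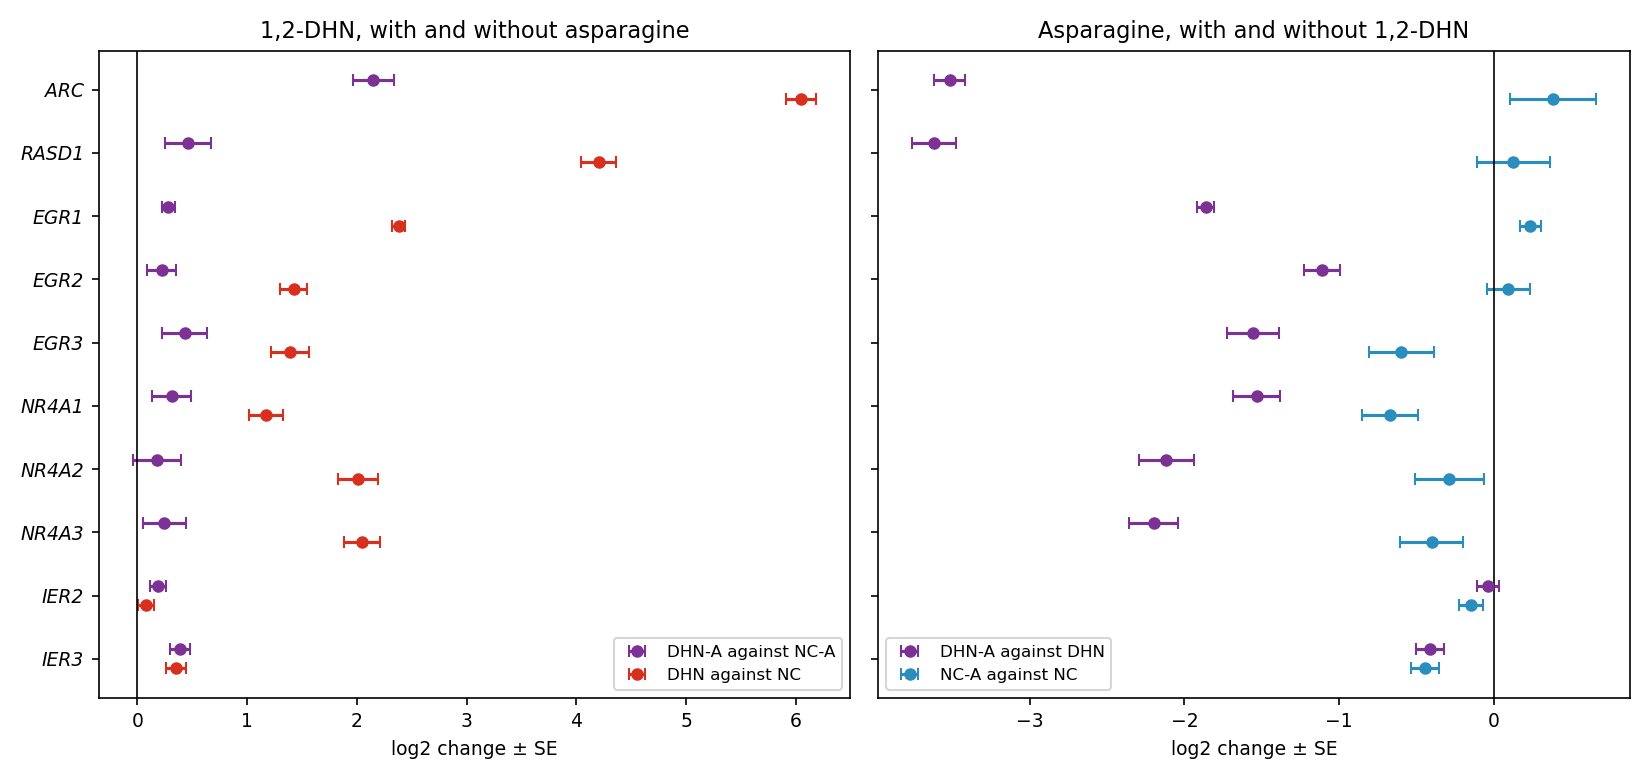
Log2 changes with SE bars: the left panel shows DHN-A against NC-A (purple) and DHN against NC (red), the right panel DHN-A against DHN (purple) and NC-A against NC (blue). In the left panel ARC drops to 2.15 with asparagine against 6.05 without it, and the 2 values of IER3 (0.38 and 0.35) nearly coincide, as do its values in the right panel (-0.41 and -0.44).

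DHN-A against DHN sets cells with and without asparagine side by side where all had 1,2-DHN, and so also holds any effect of asparagine alone. It shares the DHN libraries with DHN against NC, so opposite signs in the pair are partly built in. Of 8 members, 7 were called lower, where 41.7% of all tested genes were called, 20.9% as higher and 20.8% as lower. NR4A3 was at 2.98, 2.14 and 2.81 CPM in DHN-A, and against 10.97 to 13.1 CPM in DHN it fell by 2.20 ± 0.16 on the log2 scale (edgeR adjusted p = 9.42e-16). NR4A2, at 2.44, 2.06 and 1.90 CPM in DHN-A, fell by 2.12 ± 0.18 (adjusted p = 1.2e-13), and NR4A1, at 4.28, 4.32 and 3.31 CPM, fell by 1.53 ± 0.15 (1.03e-11). EGR1 fell by 1.86 ± 0.055 (1.79e-30), EGR3 by 1.56 ± 0.17 (1.85e-10), EGR2 by 1.11 ± 0.12 (7.08e-11) and IER3 by 0.41 ± 0.088 (0.00434). IER2 was at -0.040 ± 0.071 (edgeR adjusted p = 0.686). RASD1 and ARC, as values only, were at -3.62 ± 0.14 and -3.52 ± 0.10.

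Asparagine on its own moved the members in different directions. In NC-A against NC, 1 of 8 was called higher and 3 lower, where 20.2% of all tested genes were called, 9.32% as higher and 10.9% as lower. NR4A1 was at 3.77, 2.83 and 3.04 CPM in NC-A, against 5.84, 4.54 and 5.03 CPM in NC, and fell by 0.67 ± 0.18 on the log2 scale (edgeR adjusted p = 0.0051). IER3 fell by 0.44 ± 0.092 (adjusted p = 0.00845), about as much as in cells given 1,2-DHN. EGR3, between 1.74 and 2.53 CPM in NC-A and between 2.55 and 3.55 CPM in NC, fell by 0.60 ± 0.21 (0.0352). EGR1 instead rose by 0.24 ± 0.068 (0.00983). The difference between EGR1 and EGR3 was not tested. The EGR1 call was lost without NC 1 or NC-A 2 (0.19 and 0.20, adjusted p = 0.072 and 0.0756) and with no filter on low counts (adjusted p = 0.0522). The EGR3 call was lost without NC 2, NC 3, NC-A 1 or NC-A 2 (adjusted p = 0.0727 to 0.171) and in 3 other settings (0.0642 to 0.0778).

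The others were not called in NC-A against NC: NR4A3 was at -0.40 ± 0.20 (edgeR adjusted p = 0.167), NR4A2 at -0.29 ± 0.23 (0.412), IER2 at -0.15 ± 0.076 (0.181) and EGR2 at 0.094 ± 0.14 (0.700). As values only, ARC was at 0.38 ± 0.28 and RASD1 at 0.13 ± 0.24, with overlapping groups for both.

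Cells given both compounds were last set against normal cells. In DHN-A against NC, 1 of 8 was called, EGR1, higher by 0.52 ± 0.062 on the log2 scale (edgeR adjusted p = 1.01e-08), where 21.1% of all tested genes were called and 9.83% as higher. The values of the 7 not called ran from -0.36 ± 0.16 for NR4A1 (edgeR adjusted p = 0.108) to 0.315 ± 0.13 for EGR2 (0.0736). ARC, as a value only, was still 5.78-fold higher in DHN-A, at 2.53 ± 0.18 on the log2 scale, and RASD1 1.505-fold higher, at 0.59 ± 0.20.

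Per unit of length, the order of the members shifted with treatment. The order rests on the deposited lengths, which for NR4A1 (7295 bases) and NR4A3 (6314 bases) equal all annotated exons merged. A gene whose transcripts are shorter than that is set too low. In CPM, NR4A1 averaged 11.4 in DHN, above NR4A2 at 9.29 and EGR3 at 8.19. IER3 led in every group, with means of 556 TPM in DHN-A (518 to 625 over the 3 libraries), 721 TPM in DHN (702 to 742), 418 TPM in NC-A (410.3 to 426) and 554 TPM in NC (491 to 605). In NC, IER2 (39.6 TPM) and EGR1 (29.3 TPM) came next, then EGR2 (6.02 TPM). ARC was last at 1.135 TPM (0.991 to 1.39), below NR4A3 (1.85 TPM, 1.73 to 1.96) without overlap. RASD1, NR4A1, EGR3 and NR4A2 lay between EGR2 and NR4A3 at 3.03 to 2.30 TPM, with ranges that overlapped from each to the next. In DHN the order after IER3 was EGR1 (156 TPM), ARC (78.4 TPM), RASD1 (56.5 TPM), IER2 (42.4 TPM) and EGR2 (16.4 TPM), without overlap between neighbours. NR4A2, NR4A3, EGR3 and NR4A1 followed at 9.46, 7.81, 6.57 and 6.31 TPM, and among these neighbours only EGR3 and NR4A1 overlapped. In DHN-A, ARC averaged 7.06 TPM (6.21 to 8.14), next to EGR2 at 7.80 TPM (7.18 to 8.38), with overlapping ranges. In NC-A the 5 lowest members, NR4A2, NR4A1, EGR3, ARC and NR4A3, lay at 1.92 to 1.42 TPM, and each overlapped the next.

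Some levels are uncertain, since no source used here gives the strand setting of the counting, and reads of genes that overlap on opposite strands then cannot be told apart. In GENCODE 29, genes on the opposite strand share 30.8% of the exon bases of IER2, 26.5% of those of IER3, 10.3% of those of NR4A1 and 3.38% of those of EGR3. In all 12 libraries together, the gene opposite IER2, AC011446.2, had 0 reads and that opposite IER3, IER3-AS1, had 14. The gene opposite EGR3, AC055854.1, had 76, and that opposite NR4A1, AC025259.3, was not among the symbols counted.

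Relatives and partners of the members were read from lists. EGR4, the remaining EGR gene, had 0 to 6 reads per library and was not tested. NAB2, a corepressor that EGR proteins induce and are restrained by, averaged 47.4 CPM in DHN and 37.0 CPM in NC and rose by 0.35 ± 0.067 on the log2 scale (edgeR adjusted p = 2.9e-05). It fell by 0.42 ± 0.066 in DHN-A against DHN (adjusted p = 8.22e-07). NAB1, its relative, was at 0.13 ± 0.057 in DHN against NC (edgeR adjusted p = 0.0813). WT1, a zinc finger factor that binds EGR-like sites, fell by 0.44 ± 0.091 in DHN against NC (adjusted p = 9.19e-05). Of the RXR receptors, with which NR4A1 and NR4A2 pair, 0 of 2 tested genes were called in that comparison, and RXRA was at 0.051 ± 0.059. Over all tested genes 38.7% were called there, so 0 of 2 says little about these receptors.

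IER5, an IER relative that acts on the heat shock factor HSF1, averaged 309.5 CPM in DHN and 163 CPM in NC, and rose by 0.92 ± 0.043 (edgeR adjusted p = 2.15e-22). IER5L rose by 0.54 ± 0.078 (1.73e-07). RASD2, the closest relative of RASD1, instead fell by 0.35 ± 0.077 (0.000258). In DHN-A against NC-A, where 2.1% of all tested genes were called, 0 of the 4 tested RASD and IER relatives were.

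Of 33 other immediate early genes, 27 were called higher and 5 lower in DHN than in NC, where 19.7% of all tested genes were called higher and 19% lower. Their median log2 change was 0.66, against 0.0073 over all tested genes. Among the largest changes were those of the AP-1 genes FOSB and FOS at 3.89 ± 0.12 and 3.02 ± 0.11, and GADD45B, a stress-induced growth arrest gene, at 2.48 ± 0.056. DUSP2, a MAP kinase phosphatase, was at 5.65 ± 0.545 CPM in DHN and 0.336 ± 0.127 CPM in NC (mean ± SD, n = 3). It is among the 27 but passed the filter on low counts only through its DHN libraries, so its call is no support. In DHN-A against NC-A, 2 of 33 were called, both higher, where 2.1% of all tested genes were called, and the median was 0.054. They were CSRNP1, a nuclear protein gene induced early by AXIN1, at 0.30 ± 0.072 (edgeR adjusted p = 0.0123), and JUNB, an AP-1 gene, at 0.26 ± 0.070 (0.0425), named here after their values were seen.

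Of 15 tested factors upstream of immediate early genes, 7 were called higher and 2 lower in DHN than in NC, where 38.7% of all tested genes were called. Their median log2 change was 0.14. The largest were MEF2D, a MADS-box factor, at 0.38 ± 0.056, the CREB coactivator CRTC2 at 0.36 ± 0.061, the SRF coactivator MRTFA at 0.35 ± 0.056 and CREM, a CREB relative, at 0.35 ± 0.051 (edgeR adjusted p = 2.72e-07, 3.14e-06, 9.47e-07 and 1.95e-07). In DHN-A against NC-A 0 of the 15 were called, beside 2.1% of all tested genes. Of the EGFR ligands, which feed the ERK cascade, 2 of 5 rose and 1 fell in DHN against NC, beside 38.7% of all tested genes called. HBEGF, heparin-binding EGF, rose by 1.499 ± 0.067 and AREG by 0.74 ± 0.20, and BTC fell by 1.06 ± 0.31 (edgeR adjusted p = 2.38e-23, 0.00196 and 0.00448).

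Genes on the lists of EGR1 targets, neuronal activity and glucocorticoid response went both ways in DHN against NC, where 19.7% of all tested genes were called higher and 19% lower. Of 14 EGR1 targets, 4 rose and 5 fell in DHN against NC, with a median of -0.033. GDF15, a stress cytokine, rose by 0.84 ± 0.064 and PDGFA, a growth factor, by 0.61 ± 0.075, while ICAM1, an adhesion molecule, fell by 0.84 ± 0.044 and FN1, fibronectin, by 0.82 ± 0.034. Of 7 tested neuronal activity genes, 2 rose and 1 fell, a share near the 38.7% called over all tested genes: RGS2, a regulator of G protein signalling, by 2.26 ± 0.14, INHBA, an activin subunit, by 0.29 ± 0.036, and VGF, a neuropeptide precursor, with a fall of 0.70 ± 0.051. Of 11 tested genes on the glucocorticoid list, 8 rose and 3 fell. The 8 include NR3C1, the gene of the glucocorticoid receptor itself, at 0.216 ± 0.0405. PER1, a clock gene, was at 0.69 ± 0.087 and ERRFI1, a feedback inhibitor of EGFR, at 0.49 ± 0.047. DUSP1 was at 0.45 ± 0.039 and MT2A, a metallothionein, at -0.49 ± 0.13. The lists overlap, so their counts are not separate. PER1, DUSP1 and SGK1, all called higher, are also among the other immediate early genes, and NAB2 is also among the EGR1 targets.

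**Figure D4:**
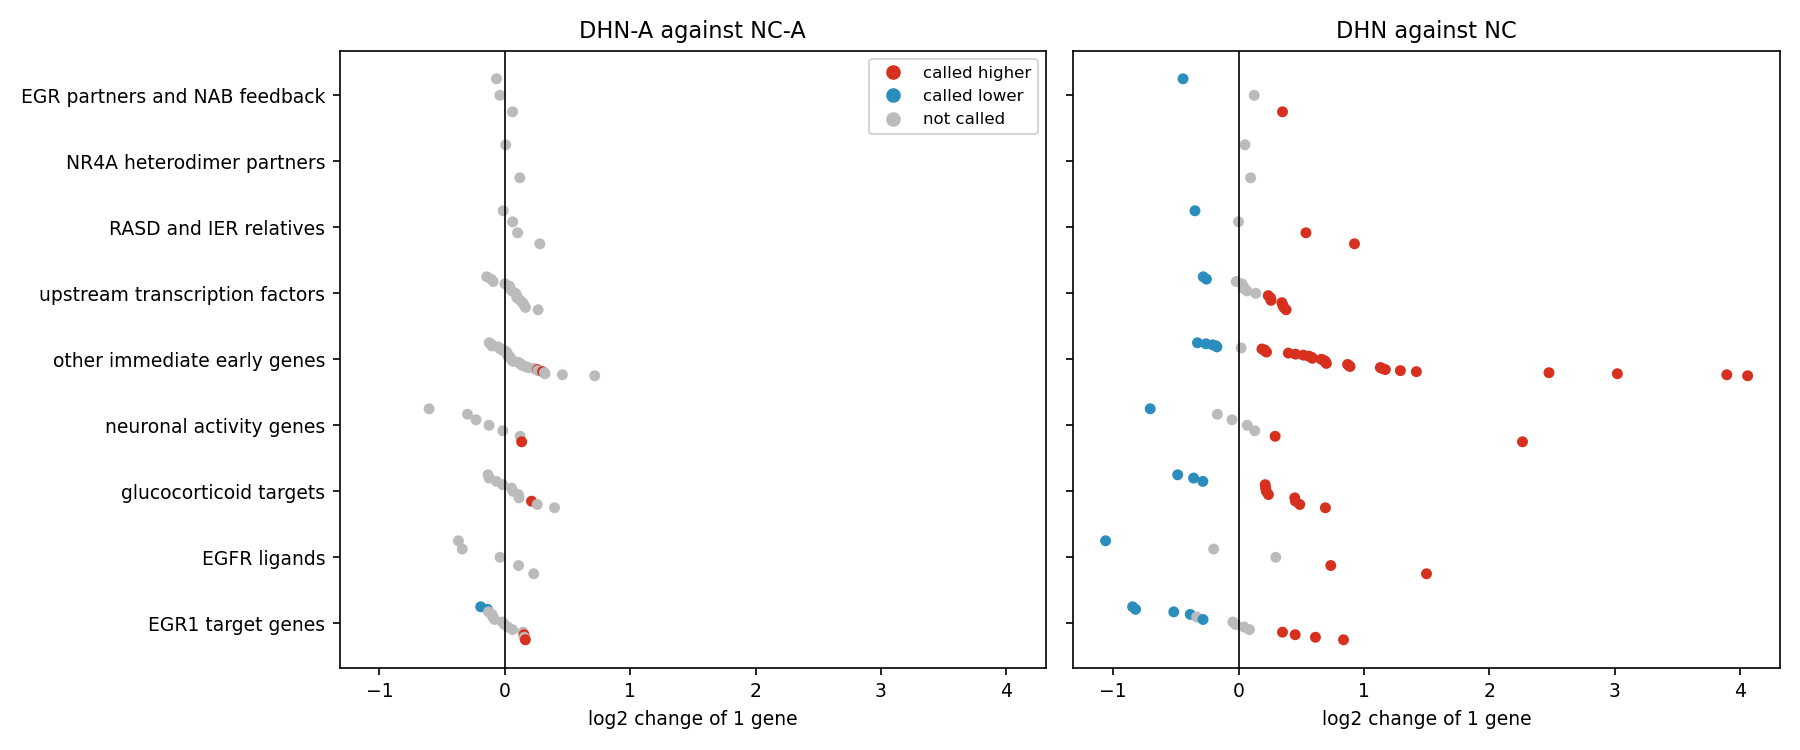
Log2 change of each tested gene on 9 lists around the members, 1 point per gene, in DHN-A against NC-A (left) and DHN against NC (right); red is called higher, blue called lower and grey not called. Of the other immediate early genes 27 of 33 are red on the right and 2 of 33 on the left.

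Markers of other cell types moved alongside, and their part in these results was not tested. The summed level of 12 neuron markers was 62.9 to 66.6 CPM in DHN-A, 75.1 to 80.8 CPM in DHN, 57.8 to 61.3 CPM in NC-A and 64.7 to 72.4 CPM in NC. In DHN against NC, where 19.7% of all tested genes were called higher and 19% lower, 4 of 10 tested markers were called higher and 2 lower. NEFM, a neurofilament gene, is among the 4 called higher. It passed the filter on low counts only through its DHN libraries, so its call is no support. DLG4, which was not called, made up the largest part of the summed level, 39.4 CPM in DHN and 38.7 CPM in NC. NEFM made up 7.86 CPM of the summed level in DHN and 0.0422 CPM in NC, and RBFOX3, a defining neuron gene, had 26 reads in all. That of 10 fibroblast markers was 1423 to 1490.0 CPM in DHN-A, 929 to 982 CPM in DHN, 1469 to 1493 CPM in NC-A and 1664 to 1764 CPM in NC, with 5 of 7 called lower. That of 14 lens markers was 48.1 to 52.1 CPM in DHN-A, 59.4 to 65.2 CPM in DHN, 43.0 to 44.9 CPM in NC-A and 45.5 to 47.7 CPM in NC, with 3 of 6 called higher; CRYAB made up 10.8 CPM of it in DHN and 0.704 CPM in NC.

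Symbols with a dot, those starting with LINC, LOC or MIR, and antisense symbols were left out of a search for genes of like pattern. Across the 12 libraries, which differ in group and depth, the genes with the pattern most like a member were found by Pearson's r of log2 CPM over the remaining tested genes. For EGR1 they were GADD45B (0.99), HMOX1, FTL, RFPL4A and SERPINH1, and for RASD1 they were GADD45B (0.99), GZF1, HMGXB3, ATF3 and CLU. For ARC they were NQO1 (0.99), FTL, CA2, TBX3 and SH3RF1, with CA2 at only 0.103 CPM in DHN-A, 0.781 in DHN, 0.0246 in NC-A and 0.0141 in NC. CA2 passed the filter on low counts only through its DHN libraries, so its likeness to ARC is no support. NQO1, a quinone reductase, averaged 81.6 CPM in DHN-A, 117.7 in DHN, 61.45 in NC-A and 56.9 in NC. For NR4A1, which was lower in NC-A than in NC, they were IFFO2 (0.99), ING1, RDH10, TEAD3 and MYBL2. Among the members, r was 0.99 between NR4A2 and NR4A3, 0.99 between RASD1 and EGR1, and 0.40 between NR4A3 and IER2. For IER3 it ran from 0.73 with EGR2 to 0.90 with EGR3. These are descriptions of 12 points in 4 groups.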

How the data were processed

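Per the labels' protocols, total RNA from a Qiagen kit went into a stranded library kit. The values deposited are read counts for each symbol, as whole numbers with no normalisation, beside a gene length. The genome was hg38 and the aligner Bowtie, per the submitters' processing notes; no source used here gives its version, the counting tool, the strand setting or the annotation. Genes were kept by filterByExpr (CPM of at least 0.476 in 3 libraries), scaled by trimmed mean of M values and fitted with 1 mean per group over all 12 libraries (edgeR 4.0.16, R 4.3.3, robust quasi-likelihood). The 6 comparisons were adjusted by Benjamini-Hochberg over 17889 genes. SEs were derived from each change and its F statistic and are approximate. TPM was computed from counts and deposited lengths. The procedure was tested on simulated counts. Members and lists were chosen with earlier results of these data known. Named were all members, NAB1, NAB2 and EGR4, up to 4 called genes per list with the largest change in DHN against NC, and the 5 genes most like each of 4 members. Gene coordinates are from GENCODE 29 and promoters from RefSeq. Alternatives were DESeq2 1.42.0, limma-voom (limma 3.58.1), relative log expression scaling, no filter, a replicate block, a fit to the compared groups alone, and omission of each library in turn. No pair of replicates looked like a repeat deposit, with a mean chi-square per gene of 1.74 to 4.24.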

Additional observations from a re-analysis of the deposited data

Results flagged for a closer look

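The effect of 1,2-DHN differed between cells with and without asparagine for 6 of the 8 members tested, by edgeR's interaction test. The interaction, on the log2 scale, was -2.10 for EGR1, -1.21 for EGR2 and -0.96 for EGR3. It was -0.86 for NR4A1, -1.83 for NR4A2 and -1.80 for NR4A3. The adjusted p-values ran from 8.08e-24 for EGR1 to 0.00597 for EGR3, and 25.7% of all tested genes were called in the same test.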

How the results depend on the processing

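No paired design is stated, and pairing by replicate number was not seen: of 18 same-numbered pairs, 1 had a correlation of deviations above 0.1 (range -0.18 to 0.23). With 3 libraries per group, such correlations cannot show that the libraries are unpaired. With the number as a replicate block, 6805 genes were called in DHN against NC, 7361 in DHN-A against DHN, 334 in DHN-A against NC-A, 3458 in NC-A against NC, 3585 in DHN-A against NC and 4477 in the interaction, and 7, 7, 3, 4, 1 and 6 members. In every setting tried, 7 members were called in DHN-A against DHN and 7 in DHN against NC. The counts were 1 for DHN-A against NC, and 5 or 6 for the interaction.

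Leaving out each library, 143 to 426 genes were called in DHN-A against NC-A (375 as reported; 143 without DHN-A 2, 170 without NC-A 3, 226 without NC-A 2, 230 without DHN-A 1), with 1 to 3 members (1 without NC-A 3). Members called in NC-A against NC were 2 to 4 (2 without NC-A 2), and 2 with no filter on low counts. Of the changes tested and not called, those that turned sign when a library was left out were IER2 in DHN-A against DHN (-0.12 to 0.034), IER2 in DHN-A against NC (-0.037 to 0.12), NR4A2 in DHN-A against NC-A (-0.010 to 0.35), EGR2 in NC-A against NC (-0.026 to 0.15), IER3 in DHN-A against NC (-0.15 to 0.015) and IER3 in the interaction (-0.065 to 0.12); the cause was not tested. RASD1 in NC-A against NC, given with no test, ran from -0.092 to 0.27. Other scalings moved the median of all genes by less than 0.1 on the log2 scale. DESeq2 gave no adjusted p for 7 members in DHN-A against NC-A, ARC among them. For ARC it gave a log2 change of 2.16 there, with an unadjusted DESeq2 p of 2.28e-20. The 2 members that DESeq2 called in that comparison therefore do not include ARC. The smallest change that this depth could show was not measured.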

Other observations

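Some markers of other cell types, read from lists, changed with 1,2-DHN. NEFM, a neurofilament subunit, averaged 7.86 ± 2.12 CPM in DHN and 0.0422 ± 0.0732 CPM in NC (SD, n = 3), and 0.243 CPM in DHN-A and 0.214 CPM in NC-A. It passed the filter on low counts only through its DHN libraries, so no test is given. The neuron genes SLC17A7, TUBB3 and GAD1 rose in DHN against NC by 1.73 ± 0.37, 1.24 ± 0.34 and 0.82 ± 0.30 on the log2 scale, with means under 2 CPM in DHN and in NC. From the same list SNAP25 and CAMK2A fell by 0.47 ± 0.15 and 0.395 ± 0.16, and MAP2, SYN1, DLG4 and STMN2 were not called. The collagen genes COL6A3, COL3A1, COL1A2 and COL1A1 fell by 1.24, 1.16, 0.91 and 0.83. Of the lens genes, CRYAB, a small heat shock protein of the lens, rose by 3.87 and PROX1 by 2.06, and PAX6 rose by 0.24. PROX1 was low, at a mean of 1.19 CPM in DHN and 0.291 CPM in NC. The other lens genes tested, SIX3 (-0.21), CRYGS (-0.028) and BFSP1 (0.36), were not called. CRYAB was also called higher in DHN-A against NC-A, by 1.81 ± 0.24 (edgeR adjusted p = 1.12e-06).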
